A study of Mus musculus with 6 samples.

Results

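Spire2, Myl6b, Synpo, Speg, Gas7, Raph1 and Myof are 7 mouse genes for proteins that build, bundle or pull on actin filaments or shape the plasma membrane. They were measured in RAW264.7 cells, a mouse line of macrophage-like cells, with and without knockdown of the immune receptor Tim-3. The 7 genes were read by 9 targets, 1 for each gene except Synpo and Speg, which had 2. They stand among 1229 genes with a matched symbol and 44170 targets in all. The genes were chosen by their measured difference between knockdown and control cells, together with what their proteins are known to do, so their differences are given below as a description with no test. By limma's fit over all targets, the adjusted p-values of the 6 called targets ran from 0.016 for Spire2 to 0.0413 for Myof. Myof was just inside the threshold of 0.05. Gas7, at a limma adjusted p of 0.0614, was the nearest outside it, and Raph1 was at 0.0943. In the authors' filtered series table, the limma adjusted p-values of Gas7 and Raph1 were 0.015 and 0.0337. Of the 9 targets, 6 were called over all targets, where 0.505% of all targets were called higher and 0.709% lower. In the filtered table these shares were 2.68% and 3.88%. Nothing is read from these member counts, since the same contrast chose the genes.

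The study compared 3 arrays of cells carrying the vector pRNAi-U6H1 with an interfering RNA against Tim-3 with 3 arrays of cells carrying the same vector with a control interfering RNA. All cells were RAW264.7, and per the labels each array came from its own culture. The knockdown cells were selected with G418 as stably expressing clones. The sources used here do not say how many clones stand behind the cultures. The spread between arrays is that between cultures, and whether it includes differences between independently made clones is not known. No dose, age or time point separates the groups.

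Actin filaments start from nucleators, grow at the membrane under proteins that protect their growing ends, and are bundled, cross-linked and pulled on by myosin motors. Myosin motors carry light chains, and kinases related to myosin light chain kinase sit on the contractile apparatus. F-BAR proteins bend membranes and tie them to actin, and ferlins carry C2 domains that bind phospholipids during membrane fusion and repair. In macrophages these systems serve migration, the engulfing of particles and the repair of the cell surface.

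After the authors' processing, which may itself bring arrays to a common level, the arrays differed little in overall level, and 1 control array stood apart. Median intensities per array lay between 201.5 and 218.3, and random-sequence probes, which show the background, averaged 23.1 to 24.5. Control replicate 3 correlated with every other array at a Pearson's r of 0.965 to 0.972, computed on the log2 values of all targets, and the other 5 arrays correlated with each other at 0.982 to 0.990. These correlations run across targets, and targets are no replicates. Havcr2, the gene of Tim-3, was not analysed here, so the knockdown was not checked. Of 36 listed macrophage markers 1 was matched by name, Ptprc (CD45), with summed intensities of 125 to 171 on knockdown and 146 to 195 on control arrays. The other defining macrophage markers were not analysed here. Of 38 striated muscle markers 1 was matched, Neb (nebulin), at 57 to 86 on knockdown and 78 to 136 on control arrays. The 2 matched neuronal markers of 16, Dlg4 and Syn1, summed to 421 to 551 and 511 to 635. Of the lists for podocytes and for smooth muscle and fibroblasts, 0 of 12 and 0 of 18 genes were matched. The 4 matched hepatocyte markers of 19 (Apoc1, Hpn, Pklr and Kng1) summed to 7269 to 8266 on knockdown arrays and to between 180 and 9308 on control arrays, and the low value was that of control replicate 3. Each sum covers only the genes matched by name, so the sums are not comparable between lists. The part of other cell types in the differences below was not tested, but the difference of each member target is given without control replicate 3 as well. On that array the members' log2 values minus the mean of the other controls ran from -0.23 to 0.66. The plot of differences with each array left out shows by target how the knockdown minus control difference moved.

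Promoter sequence is shown for 5 of the 7 genes as a description. The split into 4 higher and 3 lower genes comes from the contrast that chose them and does not show that they moved as groups. Each run is the 250 bases before a transcription start in RefSeq (GRCm38.p6), printed 5′ to 3′ on the gene's own strand. Gas7 and Synpo are named only. The windows are chr8:123332463-123332712 (plus strand) for Spire2, chr10:128498686-128498935 (minus) for Myl6b, chr1:75375047-75375296 (plus) for Speg, chr1:60566766-60567015 (minus) for Raph1 and chr19:38043578-38043827 (minus) for Myof. Speg has 4 listed starts, and the outermost is shown. Capitals mark matches on either strand to a TATA box (TATAAA), a GC box (GGGCGG), a PU box (GAGGAA), an AP-1 site (TGANTCA) or a CArG box, the site of serum response factor. Overlapping matches were each counted.
Spire2: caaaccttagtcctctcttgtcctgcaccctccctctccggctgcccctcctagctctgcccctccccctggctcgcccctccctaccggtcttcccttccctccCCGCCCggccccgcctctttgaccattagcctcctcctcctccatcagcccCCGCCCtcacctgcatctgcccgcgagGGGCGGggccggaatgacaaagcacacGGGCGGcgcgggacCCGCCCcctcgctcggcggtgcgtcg
Myl6b: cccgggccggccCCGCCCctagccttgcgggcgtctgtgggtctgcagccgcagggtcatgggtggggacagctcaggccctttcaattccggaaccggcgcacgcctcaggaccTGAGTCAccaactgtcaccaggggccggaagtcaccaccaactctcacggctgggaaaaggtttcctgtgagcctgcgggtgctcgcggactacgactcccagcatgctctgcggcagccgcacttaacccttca
Speg: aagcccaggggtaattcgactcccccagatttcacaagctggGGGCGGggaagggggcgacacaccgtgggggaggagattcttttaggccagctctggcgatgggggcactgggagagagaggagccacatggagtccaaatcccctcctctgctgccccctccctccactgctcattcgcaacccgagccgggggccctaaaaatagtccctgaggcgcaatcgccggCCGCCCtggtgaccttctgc
Raph1: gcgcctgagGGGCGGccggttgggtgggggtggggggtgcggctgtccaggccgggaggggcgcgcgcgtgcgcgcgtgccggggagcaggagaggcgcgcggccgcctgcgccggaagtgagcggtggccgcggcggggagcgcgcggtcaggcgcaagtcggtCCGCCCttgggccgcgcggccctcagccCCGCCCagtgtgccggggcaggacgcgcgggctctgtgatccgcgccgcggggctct
Myof: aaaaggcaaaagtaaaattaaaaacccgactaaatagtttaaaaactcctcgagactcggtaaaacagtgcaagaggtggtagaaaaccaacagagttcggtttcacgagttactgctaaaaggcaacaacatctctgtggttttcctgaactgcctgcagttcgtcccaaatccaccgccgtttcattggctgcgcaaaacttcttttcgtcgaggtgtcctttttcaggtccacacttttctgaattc

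The window of Spire2 held 5 GC boxes, that of Raph1 3, that of Speg 2, that of Myl6b 1 and that of Myof 0. A GC box was found in 32.7% of 32851 RefSeq windows of this length. Myl6b also held 1 AP-1 site, found in 6.75% of all windows. None of the 5 windows shown held a TATA box, a PU box or a CArG box, which were found in 12.4%, 23.3% and 1.47% of all windows. The other 3 Speg windows held 3, 0 and 1 GC boxes and each held 1 PU box. Which Speg start gave the measured transcripts was not tested. The Raph1 window had 41 CpG dinucleotides, more than 98.9% of all windows, and 81.6% G or C. The Myof window, with 11 CpG and 42.8% G or C, lay below the median of all windows in G and C content (52.4%) and above it in CpG (6). These matches describe letters in a window and show no binding.

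The comparison of knockdown with control cells asked how each gene's level differed when Tim-3 was knocked down. Spire2, Myl6b, Synpo and Speg were higher in the knockdown, by 1.86 to 3.76 times over 5 targets, and Gas7, Raph1 and Myof were lower, by 1.63 to 2.25 times. The dimmer Synpo target differed by 1.05 times. In RNA of whole cultures, fewer cells making a transcript and less of it per cell cannot be told apart. Of the 9 targets, 5 were higher and 3 were lower with no overlap between the groups, where 12.1% of all targets were higher and 13.0% lower in this way. By the 2-fold screen of the series' design text, 4 targets were at least 2-fold higher and 1 at least 2-fold lower, where 1.6% and 1.24% of all targets were. Nothing is read from these counts, because the members were picked on this contrast. The median difference over all targets was 0.01 and the median size of a difference 0.22 on the log2 scale.

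Spire2 is an actin nucleator that binds actin monomers through its WH2 domains and works with formins, among others in vesicle transport. Its intensities were 745, 542 and 736 on knockdown replicates 1 to 3 and 201, 147 and 189 on control replicates 1 to 3. Every knockdown array was above every control array, and replicate 2 was the lowest of either group. On the log2 scale the means were 9.38 ± 0.26 and 7.47 ± 0.24 (SD, n = 3), a difference of 1.91, or 3.76 times. It was the largest difference of the 9 targets, and the gap between the lowest knockdown and the highest control array was 1.43. With 1 array left out in turn the difference stayed between 1.78 and 2.06, and it was 1.96 without control replicate 3.

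Synpo, or synaptopodin, binds actin and alpha-actinin and is best known from the foot processes of podocytes and from dendritic spines. Its brighter target, NM_177340, had intensities of 1049, 759 and 1014 on the knockdown arrays and 440, 401 and 393 on the control arrays. The groups did not overlap, and knockdown replicate 2 was the lowest of its group, as for Spire2. The log2 means were 9.86 ± 0.26 and 8.68 ± 0.09 (SD, n = 3), a difference of 1.18 (1.15 without control replicate 3). The dimmer target, NM_001109975, had 93.0, 104 and 82.3 on the knockdown and 87.2, 81.7 and 96.3 on the control arrays. Its groups overlapped, only 1 array reached an intensity of 100, and the log2 difference was 0.07 (0.13 without control replicate 3), moving between -0.01 and 0.16 as single arrays were left out. The 2 targets' differences were 1.11 apart on the log2 scale. The rise was thus seen on 1 of the 2 Synpo targets, and which transcripts the probes of each can read was not analysed here.

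Myl6b is an alkali, or essential, light chain that binds the neck of myosin heavy chains. Its intensities were 392, 338 and 479 in the knockdown and 148, 185 and 177 in the control. The lowest knockdown array, replicate 2, was still well above the highest control array, with a gap of 0.87 on the log2 scale. The log2 means were 8.64 ± 0.25 and 7.40 ± 0.17 (SD, n = 3), a difference of 1.24 that lay between 1.10 and 1.36 with single arrays left out. Without control replicate 3 it was 1.27. Light chains of the same family are alike in sequence, so probes for Myl6b may also read relatives such as Myl6, and this was not tested.

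Speg is related to myosin light chain kinase and known from striated and smooth muscle, where it supports the junctions between the surface membrane and the calcium stores. Its brighter target, NM_001085371, had intensities of 1290, 1437 and 1199 in the knockdown and 548, 563 and 654 in the control, a log2 difference of 1.15 between means of 10.35 ± 0.13 and 9.20 ± 0.14 (SD, n = 3). The second target, NM_001085370, had 402, 421 and 375 against 204, 200 and 242, a log2 difference of 0.89 between 8.64 ± 0.08 and 7.75 ± 0.15 (SD, n = 3). Both targets were highest on knockdown replicate 2, where Spire2, Myl6b and the brighter Synpo target were at their lowest of the group, and both were highest among controls on control replicate 3. Neither target's groups overlapped. Without control replicate 3 the differences were 1.23 and 0.98, and the 2 targets' differences were 0.26 apart with all arrays. Both Speg targets thus moved the same way by a similar amount, unlike those of Synpo.

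**Figure D1:**
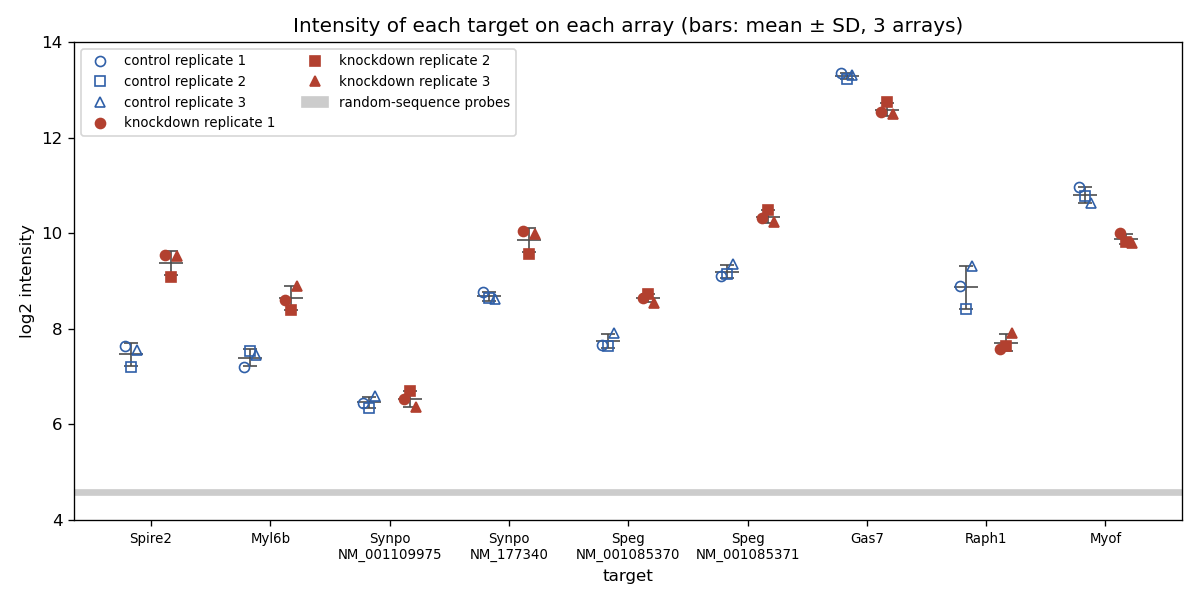
Log2 intensity (vertical axis) of the 9 targets (horizontal axis) on the 3 control arrays (open blue) and 3 knockdown arrays (filled red), with mean and SD as bars and the level of random-sequence probes as a grey band. The groups separate for 8 of the 9 targets, and the dimmer Synpo target overlaps.

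Raph1, also called lamellipodin, brings Ena/VASP proteins and the WAVE complex to the leading edge, where they drive lamellipodia forward. Its intensities were 190, 200 and 240 in the knockdown and 474, 342 and 638 in the control. The groups did not overlap, but the controls spread more than those of any other member, with an SD of 0.45 on the log2 scale against 0.06 to 0.24 for the other 8 targets. The log2 means were 7.71 ± 0.18 and 8.87 ± 0.45 (SD, n = 3), a difference of -1.17. Control replicate 3 was the highest array and lay 0.66 above the other controls on the log2 scale. Without it the difference was -0.95, which is under 2-fold, and without control replicate 2 it was -1.40. The size of the Raph1 difference therefore moved with the control arrays more than that of the other targets whose groups did not overlap.

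Gas7 is an F-BAR protein that binds actin filaments and membranes and was first described in growth-arrested cells and in neurons. Its intensities were 5969, 6880 and 5760 in the knockdown and 10434, 9583 and 10167 in the control. The control arrays lay close together (SD 0.06), and all were above every knockdown array by a gap of 0.48 on the log2 scale. The log2 means were 12.59 ± 0.14 and 13.30 ± 0.06 (SD, n = 3), a difference of -0.70, or 1.63 times lower. It was the smallest difference of the 8 targets whose groups did not overlap. It lay between -0.78 and -0.65 with single arrays left out and was -0.69 without control replicate 3.

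Myof, or myoferlin, is a ferlin of the plasma membrane known for roles in myoblast fusion, membrane repair and endocytic recycling. Its intensities were 1028, 910 and 894 in the knockdown and 2006, 1755 and 1596 in the control. All knockdown arrays were below all control arrays, with a gap of 0.64 on the log2 scale, and control replicate 3 was the lowest of its group. The log2 means were 9.88 ± 0.11 and 10.80 ± 0.17 (SD, n = 3), a difference of -0.92, or 1.89 times lower. Without control replicate 3 it was -0.99, and no single array left out brought it above -0.83.

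**Figure D2:**
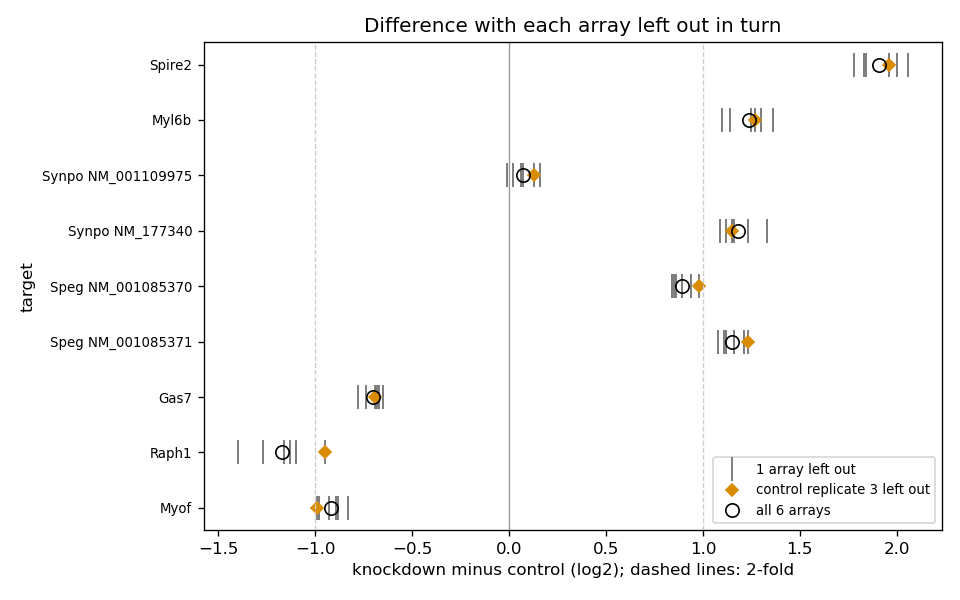
Difference between knockdown and control means on the log2 scale (horizontal axis) for each target (vertical axis): circles use all 6 arrays, ticks leave out 1 array each, and diamonds leave out control replicate 3. The sign held in all 6 cases for 8 of the 9 targets, the exception being the dimmer Synpo target, and Raph1 moved from -1.17 to -0.95 without control replicate 3.

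The wider machinery was read through lists of 614 other genes of the actin, myosin and membrane systems, of which 26 were measured under a matched symbol. Of these 26 genes, 0 rose, 0 fell and 26 did not pass limma's test over all targets, where 0.505% of all targets were called higher and 0.709% lower. At an unadjusted limma p under 0.05 there were 7 genes, 4 of them higher and 3 lower, or 26.9% of the 26 against 17% of all targets. The median difference of the 26 genes was 0.00 on the log2 scale (-0.02 without control replicate 3), with a range of -0.49 to 0.72, and the median size of a difference was 0.30 against 0.22 over all targets. None was 2-fold apart. The groups did not overlap for 2 genes that were higher and 5 that were lower, together 26.9% of the 26, a share near that of all targets (12.1% higher and 13.0% lower). The lower genes by unadjusted p and those by overlap both include Myh3, whose mean level was no higher than that of random-sequence probes. Intensities were under 100 on every array for 5 of the genes and at 100 or more on all 6 arrays for 15.

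No other listed nucleator was measured, so Spire2 stands alone in its list. Of the bundling and cross-linking genes, radixin (Rdx), which ties actin to the membrane, differed by -0.12 (95% interval -0.37 to 0.13) and -0.19 (95% interval -0.48 to 0.10) on its 2 targets, on the log2 scale. Neb had the lowest adjusted p of that list, with a difference of -0.49 (limma adjusted p = 0.396). It reached 100 on 1 array only, control replicate 3, without which the difference was -0.25. Add1, an adducin that caps filaments and the only measured gene for filament turnover, differed by -0.12 (limma adjusted p = 0.574, interval -0.37 to 0.12). These cytoskeletal genes therefore gave no call in either direction, and the intervals of Add1 and Rdx exclude a 2-fold change.

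Among motor and kinase genes, the one with the lowest adjusted p was Cdc42bpg, a kinase related to ROCK that can act on myosin light chains. Its intensities were 645, 473 and 747 in the knockdown and 432, 375 and 365 in the control, a log2 difference of 0.65 (95% interval 0.18 to 1.12, limma adjusted p = 0.181). The groups did not overlap, and knockdown replicate 2 was again the lowest of its group. Trio, an exchange factor for small GTPases with a kinase domain, differed by -0.17 and Myl10, a regulatory light chain, by -0.23, with intervals of -0.69 to 0.35 and -1.10 to 0.63. Of the myosin heavy chains, Myh3 had the lowest adjusted p (limma, 0.213), but its mean log2 intensity of 4.45 was no higher than that of random-sequence probes (4.53 to 4.62), so its difference is not read. Myh7b differed by 0.47 (interval 0.02 to 0.91) and Myo15 by 0.29 (interval -0.18 to 0.76). A gene that missed the threshold is not thereby shown to be level between the groups.

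Of the genes at the leading edge, Baiap2l2, an I-BAR protein related to IRSp53, differed by 0.56 (limma adjusted p = 0.262), while Mtss1, another I-BAR protein, differed by -0.07. Lmo7, which binds actin at junctions, differed by 0.72 and by only 0.17 without control replicate 3, with intensities under 100 on every array. Of the BAR-domain genes beside Gas7, Asap2, an Arf GTPase-activating protein, differed by -0.45 (limma adjusted p = 0.190) with no overlap between groups, and Arhgap44 by -0.49 with intensities under 100 throughout. Beside Myof, 6 genes for ferlins, annexins and membrane repair were measured. Ehd2, an ATPase at the neck of caveolae, had the lowest adjusted p, with a difference of 0.52 (95% interval 0.19 to 0.86, limma adjusted p = 0.148) and no overlap between groups. Otof, another ferlin, differed by -0.47 with all arrays and by 0.05 without control replicate 3, and did not reach 100 on any array. Anxa6, Anxa7, Anxa9 and the calpain Capn1 differed by 0.14, 0.13, 0.16 and 0.01, and Anxa6 stayed under 100 on every array.

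Genes for adhesion and for regulators of small GTPases made up the rest. Nedd9, a scaffold of integrin signalling, had intensities of 1346, 1069 and 1179 in the knockdown and 1707, 1541 and 1797 in the control, a log2 difference of -0.49 (95% interval -0.82 to -0.16, limma adjusted p = 0.157). Its groups did not overlap. It was called lower when targets below the median level were left out (limma adjusted p = 0.0385) and with trend and robust fitting (limma adjusted p = 0.0225), the latter also calling Cdc42bpg higher (limma adjusted p = 0.0362). Lyn, a Src-family kinase of myeloid cells, differed by 0.31 and by 0.07 without control replicate 3. The exchange factors Dock5 and Ngef differed by -0.01 and 0.69, where Ngef (limma adjusted p = 0.743) turned to -0.44 without control replicate 3, whose log2 value minus that of the other controls was -3.39. Plekhg6 turned from 0.06 to -0.26 without it. In all, 3 of the 26 genes changed sign without that array.

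**Figure D3:**
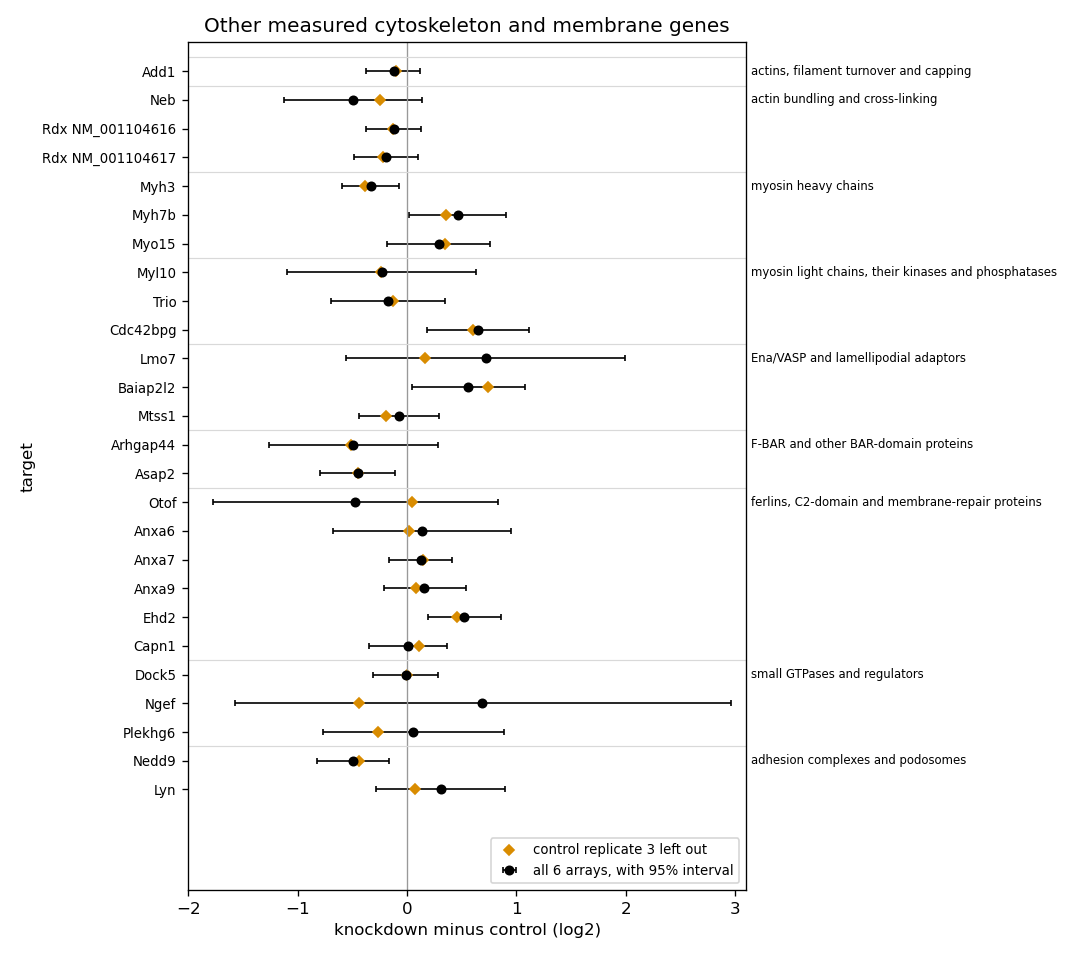
Difference between knockdown and control on the log2 scale (horizontal axis) with limma's 95% interval for 26 targets of other measured genes (vertical axis), grouped by list. Diamonds leave out control replicate 3 and lie far from the full value for Ngef (0.69 against -0.44), Lmo7 and Otof.

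The genes with a matched symbol whose profile over the 6 arrays lay nearest to that of each member were found among 528 genes at or above the median level. Nearness was the root-mean-square distance between log2 values centred on each target's own mean, so that a smaller value means a closer profile. The closest of all was Psd3, an exchange factor for Arf6, to Gas7, with a distance of 0.08 and a log2 difference of -0.69, followed by Armc7 to Gas7 at 0.10. Myof lay nearest to Kif21a (0.13), a kinesin, and Nbea (0.17), a scaffold of membrane traffic. Raph1 lay nearest to Slc24a2 (0.14), a sodium, calcium and potassium exchanger, and to Sv2b (0.24), a synaptic vesicle protein, and these also had their highest value on control replicate 3. Speg lay nearest to Isg15 (0.18), an interferon-induced ubiquitin-like protein, and Gmds (0.27), and shared with both the highest value on knockdown replicate 2. Myl6b and the brighter Synpo target both lay nearest to Csprs (0.16 and 0.28), followed by the endocytic adaptor Dab2 (0.28) for Myl6b and Cdc42bpg (0.28) for Synpo. Spire2 lay farthest from its nearest genes, with Isg15 at 0.43 and Csprs at 0.46. The distance is not scaled to the size of the difference, so it tends to be larger where a target's difference is larger. Of the targets compared, Spire2 had the largest difference (1.91) and Gas7 the smallest (-0.70), so distances are not comparable between members. These are descriptions over 6 arrays of the same contrast.

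**Figure D4:**
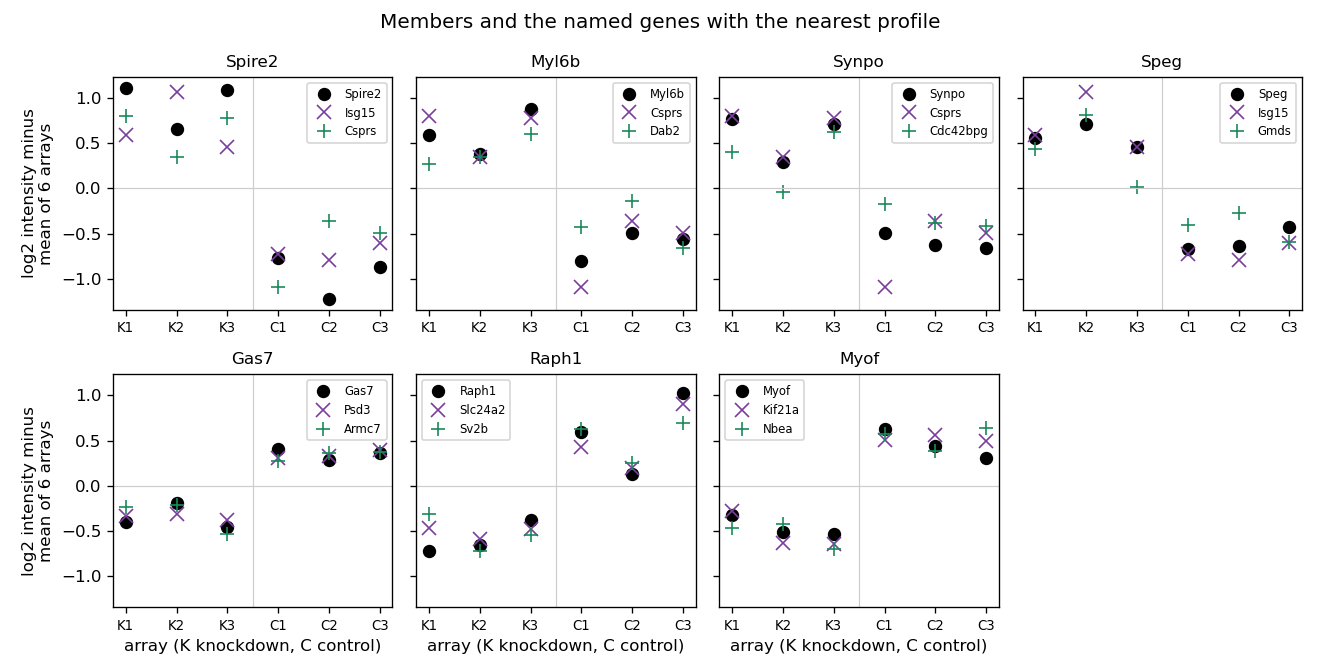
Log2 intensity minus the target's mean over the 6 arrays (vertical axis) on knockdown arrays K1 to K3 and control arrays C1 to C3 (horizontal axis), for each member (black) and the 2 named genes with the nearest profile. Psd3 lies almost on Gas7 (distance 0.08), while Isg15 and Csprs lie farther from Spire2 (0.43 and 0.46).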

How the data were processed

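Total RNA of 6 cultures, carrying the dye Cy3, was read on NimbleGen mouse arrays with 1 colour. The authors deposited an intensity on a linear scale for each target and array, made with RMA per the submitters' processing notes, and the deposited series table holds the same values for 27526 targets, each of which reached 100 on 3 arrays or more. The RMA settings and the genome build are not given in the sources used here. If RMA included quantile normalization, as it commonly does, a shift shared by all genes of a group is removed. The deposited number of probes (other) was 3 for each of the 9 targets.

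Accessions without versions were matched to RefSeq transcripts, symbols and synonyms (GRCm38.p6, names only), which named 1267 of 44170 targets (2.87%). Targets of the same genes under other accessions were not used here. Log2 intensities were fitted with limma 3.58.1 in R 4.3.3 (knockdown minus control, default eBayes, no block, two-sided, Benjamini-Hochberg over all targets), after a check on simulated data. Figures used matplotlib 3.10.9. The members and lists were chosen with earlier results of these data known. Named genes were, in each list, the called genes or else that with the lowest adjusted p, plus up to 4 markers per cell type and the 2 nearest profiles per member. Other listed genes were named after their values were seen, and 1 measured gene of the lists is counted but not reported here by name. Groups and replicate numbers came from the labels. No slide or scan date is recorded in the files. The small number of arrays, 3 in each group, limits the precision.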

Additional observations from a re-analysis of the deposited data

How the results depend on the processing

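Of 89 values of the members' differences under 10 other settings (quantile normalization, median centring, an offset of 50, the series table, which lacks the dimmer Synpo target, and each array left out), 87 moved by less than 1 SD between replicates and 0 reversed beyond it. Leaving out 1 of 3 arrays in a group cannot move a difference by that SD, whatever the values. Median centring moves the differences of all targets by 1 shared amount, which was small here (Spire2 went from 1.91 to 1.90). The series table holds the same intensities. These settings therefore could not have failed, and the count is no evidence of stability for them. With log2(intensity + 50), Spire2 differed by 1.66 and the dimmer Speg target by 0.76, since an offset shrinks low values by construction.

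The counts of 223 higher and 313 lower targets kept within 1.5 times under quantile normalization, median centring, array weights and the brightest target per gene. The last of these could hardly change the counts, since only 1267 of 44170 targets had a matched symbol, for 1229 genes. The same 2 counts came to 739 and 1069 in the series table and with its intensity filter, 948 and 1245 without targets below the median level, 585 and 833 with the offset, 1094 and 1403 with trend and robust fitting, and 30 and 30 at an adjusted p under 0.01. Leaving out 1 array gave 0 to 117 higher and 1 to 109 lower targets. Of the 26 other cytoskeleton and membrane genes, 1 was called higher and 1 lower with trend and robust fitting, and leaving out targets below the median level called 1 lower. A stricter limit can only lower the counts, and why the other settings changed them was not tested.

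With the replicate block, limma called 0 higher and 0 lower targets (3202 and 3340 had an unadjusted p under 0.05). Arrays with the same number did not deviate together over all targets, with correlations of their deviations from the group mean of -0.03, -0.01 and 0.00. These values show no pairing by number but cannot exclude it. Control replicate 3 stood apart and weighs on the deviations of every control array, which could hide a weaker shared effect. Intensities near those of random-sequence probes limit what dim targets can show.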

Other observations

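Neighbours of the members along the chromosomes, 10 protein-coding genes to either side in the RefSeq table, were looked at after the other values were seen. Of these, 6 genes near 5 members were measured under a symbol, and none passed limma's test over all targets (lowest adjusted p = 0.213). Myh3, near Gas7, and Cyp26c1, near Myof, had mean log2 intensities of 4.45 and 5.02, at or close to the 4.53 to 4.62 of random-sequence probes, so their differences are not read. The other values are log2 differences with all 6 arrays. Near Raph1, Nbeal1 differed by -0.25 and Ino80d by -0.09. Near Spire2, Cdk10 differed by 0.09, and near Speg, Dnpep differed by -0.07.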
